A study of Homo sapiens with 4 samples.

Results

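The negative arm of the circadian clock was followed in SKBR3 breast cancer cells through 10 genes: PER1, PER2, PER3, CRY1, CRY2, NR1D1, NR1D2, DBP, TEF and CIART. They were taken by symbol from the deposited table of counts per gene, which has 56271 rows, and all 10 were found. SKBR3 is an established HER2-positive line, and its poly-A RNA was sequenced in 4 libraries: 2 of cells expressing eGFP (eGFP control) and 2 of cells overexpressing VIRMA. VIRMA is a scaffold protein of the methyltransferase complex for N6-methyladenosine (m6A), the most common internal mark of messenger RNA. Both groups carried a lentiviral FUW vector in which the human ubiquitin C promoter drives eGFP, alone in the controls and joined through a p2A peptide to HA-tagged VIRMA in the other group. Transduced cells were sorted for eGFP and expanded, and the study's methods call the libraries of a group biological duplicates, while the labels describe no separate cultures. Both groups share the culture text, in which a hypoxia chamber and lysis for protein appear, whereas the study treats its RNA sequencing as ordinary culture, so the oxygen level is uncertain. No source used here gives a clock time of harvest or a synchronising step, and there is 1 time point per group. A difference in clock phase between the groups and a difference in mean level therefore cannot be told apart, and in bulk RNA neither can fewer cells expressing a gene and less RNA per cell.

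In mammalian cells the factors CLOCK and BMAL1 (gene ARNTL) bind E-box elements and switch on the PER and CRY genes, whose proteins return to the nucleus and repress CLOCK and BMAL1. A second loop runs through the REV-ERB nuclear receptors (NR1D1 and NR1D2), which compete with the ROR activators for sites in the ARNTL promoter. DBP and TEF are PAR bZIP factors, proline- and acid-rich leucine zipper proteins that activate genes with a D-box, and CIART (CHRONO) is a further repressor of CLOCK and BMAL1.

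The element sequences of the loops can be read in the promoters of the genes described here. The windows are RefSeq sequences on GRCh38.p14 that run from 250 bases before a transcription start to 50 bases after it. All 10 genes matched, with 14 windows in all. The 6 shown, 1 unbroken run each, 5′ to 3′ on the gene's strand, belong to the PER genes, the REV-ERB genes and CIART. Capitals mark an E-box (CACGTG), an E-prime-box (CACGTT, read on either strand) or a D-box (TTATGTAA or TTACGTAA, read on either strand).
PER1: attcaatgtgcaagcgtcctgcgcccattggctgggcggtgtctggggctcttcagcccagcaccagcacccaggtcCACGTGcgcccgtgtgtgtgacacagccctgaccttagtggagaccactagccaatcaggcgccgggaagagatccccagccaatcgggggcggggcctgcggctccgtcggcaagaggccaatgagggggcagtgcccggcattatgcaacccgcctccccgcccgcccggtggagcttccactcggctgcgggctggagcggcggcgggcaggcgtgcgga
PER2: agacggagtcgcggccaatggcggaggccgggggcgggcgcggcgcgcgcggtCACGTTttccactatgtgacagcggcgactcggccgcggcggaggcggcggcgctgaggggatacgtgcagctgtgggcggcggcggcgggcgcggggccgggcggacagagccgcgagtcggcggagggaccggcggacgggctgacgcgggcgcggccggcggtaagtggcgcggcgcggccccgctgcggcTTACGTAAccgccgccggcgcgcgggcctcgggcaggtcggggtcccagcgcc
PER3: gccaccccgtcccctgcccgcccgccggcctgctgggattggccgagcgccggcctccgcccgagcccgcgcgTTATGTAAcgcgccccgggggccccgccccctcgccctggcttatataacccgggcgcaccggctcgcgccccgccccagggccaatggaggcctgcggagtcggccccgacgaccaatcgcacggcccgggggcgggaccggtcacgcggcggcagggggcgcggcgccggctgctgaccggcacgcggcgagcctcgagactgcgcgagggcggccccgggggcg
NR1D1: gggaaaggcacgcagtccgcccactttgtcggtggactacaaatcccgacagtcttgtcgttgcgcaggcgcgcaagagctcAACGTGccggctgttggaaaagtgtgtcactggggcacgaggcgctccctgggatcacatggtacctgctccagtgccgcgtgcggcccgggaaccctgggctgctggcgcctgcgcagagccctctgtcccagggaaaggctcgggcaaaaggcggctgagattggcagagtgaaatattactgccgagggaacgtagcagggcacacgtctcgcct
NR1D2: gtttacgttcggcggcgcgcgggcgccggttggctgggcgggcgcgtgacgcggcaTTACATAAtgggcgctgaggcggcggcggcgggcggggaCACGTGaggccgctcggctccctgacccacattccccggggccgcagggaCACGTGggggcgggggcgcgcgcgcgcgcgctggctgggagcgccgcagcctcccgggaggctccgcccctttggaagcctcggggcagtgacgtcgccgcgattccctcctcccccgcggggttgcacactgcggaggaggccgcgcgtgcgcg
CIART: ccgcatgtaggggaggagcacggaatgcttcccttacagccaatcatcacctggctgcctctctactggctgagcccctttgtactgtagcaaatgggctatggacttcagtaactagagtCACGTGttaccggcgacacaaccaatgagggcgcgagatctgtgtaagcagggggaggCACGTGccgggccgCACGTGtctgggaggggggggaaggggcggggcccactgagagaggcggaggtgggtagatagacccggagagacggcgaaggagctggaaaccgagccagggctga
They lie at chr17:8152355-8152654 (PER1, minus strand), chr2:238288561-238288860 (PER2, minus), chr1:7784041-7784340 (PER3, plus), chr17:40100540-40100839 (NR1D1, minus), chr3:23945871-23946170 (NR1D2, plus) and chr1:150282304-150282603 (CIART, plus). The PER1 window lies wholly upstream of the deposited PER1 row, so the start used by RefSeq differs from that of the counted gene model. The PER2 window and the shown NR1D2 window lie wholly inside their deposited rows. On the gene's strand those rows begin at 238290102 (PER2) and 23945260 (NR1D2), so these starts differ as well.

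An E-box or an E-prime-box stood in a window of 8 of the 10 genes, all except PER3 and DBP, and in 14.5% of the 27305 genes with a RefSeq window. PER1, NR1D2, TEF and CIART held the E-box, which 8.77% of all genes held, and PER2, CRY1, CRY2 and NR1D1 held the E-prime-box, which 6.44% held. CIART had 3 E-boxes, beginning 129, 71 and 57 bases before the start, and the shown window of NR1D2 had 2, beginning at 155 and 105 bases. The other NR1D2 window, which spans the beginning of the deposited NR1D2 row, had no E-box, E-prime-box or D-box. The PER3 window that is not shown had none of these either. A D-box, the element bound by DBP and TEF, stood in PER2, PER3 and NR1D2 and in 1.27% of all genes. In PER2 it spans the transcription start, beginning 3 bases before it. The core site of a REV-ERB and ROR element (AGGTCA, either strand) was found in PER1 and CRY2, against 16.5% of all genes. The full cyclic AMP response element (TGACGTCA) was in none of the 14 windows, against 2.25% of all genes, and its core (TGACG, either strand, contained in the full element) was in 4 of the 10 genes, against 28.4%. These matches describe letters in the windows and say nothing of binding in these cells or of elements outside the windows.

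The targeted gene was checked first. VIRMA (listed as KIAA1429) had 710 and 682 counts in the eGFP control libraries and 3437 and 3460 in the VIRMA-overexpressing libraries, which gave a log2 fold change of 2.29 with an SE of 0.0685 (edgeR adjusted p = 9.74e-26). Library totals ran from 81446932 to 86375474 counts. The markers of the line were present, with ERBB2 (HER2) at 6930 to 7100 CPM (counts scaled to library size) in the 4 libraries (adjusted p = 0.963), although the epithelial gene CDH1, which SKBR3 is known to lack, had 5 to 33 counts. Of the 9 tested markers of the line, 4 were called higher and 3 lower, among them KRT8 (log2 fold change -0.51) and KRT7 (0.49). Of markers of other cells, all 8 erythroid genes were higher in both controls, with a summed level of 20.3 to 28.1 CPM there and 0.395 to 0.514 CPM with VIRMA. HBB gave most of this, 2137 and 1543 counts in the control libraries, and was at 0 in the others. Of 10 leukocyte genes, 7 were higher in both controls, and the sum fell from 28.8 to 31.8 CPM in the controls to 16 and 16.1 CPM, nearly all of it CSF1R, with MS4A1 at 0 throughout. Of 8 fibroblast genes 3 were higher in both controls, with sums of 13.5 to 13.9 CPM against 8.51 to 9.13 CPM. COL1A1 gave nearly all of each sum, at 13.5 and 13 CPM in the controls and 8.33 and 8.86 CPM with VIRMA. The part of these differences in the clock gene results was not tested.

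Of the 10 clock genes 4 were higher with VIRMA, 1 was lower and 3 passed no test. PER2 and NR1D2 rose 1.8-fold and 1.75-fold, CRY2 1.37-fold and CRY1 1.23-fold, while NR1D1 fell to 0.778 of its control level. PER1, DBP and TEF were tested and not called, although PER1 and DBP were called under 2 other scalings, and PER3 and CIART were below the expression filter. A gene was tested where its level exceeded 1 RPKM (CPM per kilobase of exon) in at least 2 of the 4 libraries, which 12205 genes did, and called at an edgeR adjusted p below 0.05. All 8 tested clock genes exceeded 1 RPKM in all 4 libraries. The background was broad: 35.1% of tested genes were called higher and 35.9% lower. The 4 of 8 called higher and 1 of 8 called lower are to be read against those shares. None of the 8 passed the 2-fold threshold as well, which 4.52% of tested genes passed upwards and 2.93% downwards. In 7 of the 8 (all but TEF) the groups did not overlap, as in 84.3% of tested genes. The median log2 fold change of the 8 was 0.21, against 0.01 over all tested genes. The count of 4 higher became 6 with upper-quartile factors or with library totals alone as scaling, which added PER1 and DBP.

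**Figure D1:**
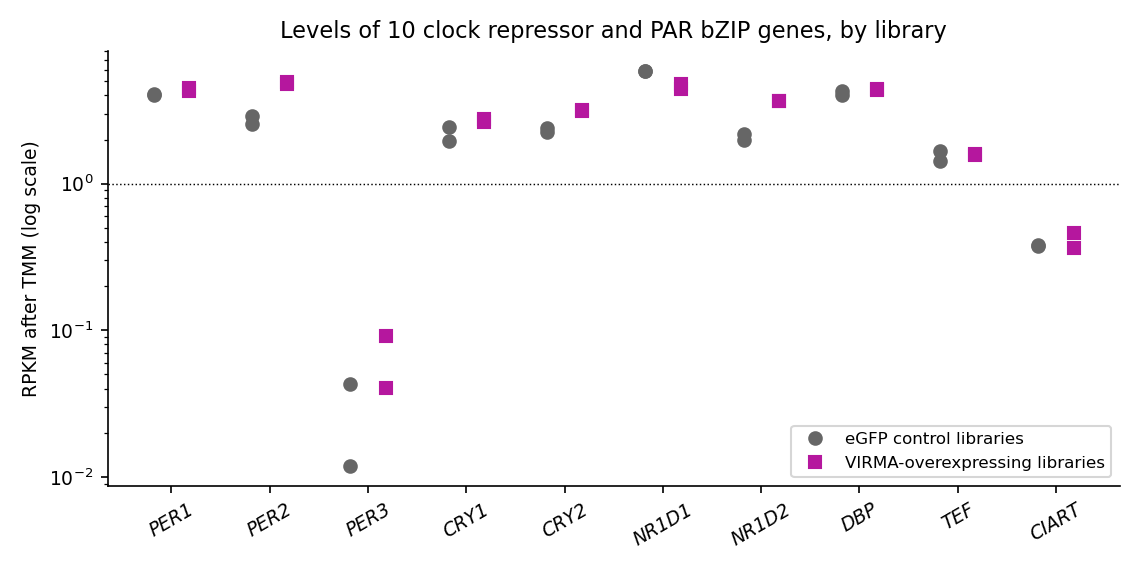
Level in RPKM (log scale) of each of the 10 clock genes in each library, with eGFP control and VIRMA-overexpressing libraries as separate points and the dotted line at 1 RPKM. PER2 and NR1D2 lie clearly apart between the groups, the points of NR1D1 lie lower with VIRMA, and PER3 and CIART stay below the line in every library.

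By level per length the order of the genes changed between the groups. In the controls NR1D1 was the highest at a mean of 5.92 RPKM, followed by DBP at 4.17, PER1 at 4.08, PER2 at 2.72, CRY2 at 2.32, CRY1 at 2.19, NR1D2 at 2.09 and TEF at 1.55 RPKM. DBP and PER1, CRY2 and CRY1, and CRY1 and NR1D2 were neighbours whose libraries overlapped. With VIRMA, PER2 led at 4.88 RPKM, followed by NR1D1 at 4.6, PER1 at 4.41, DBP at 4.4, NR1D2 at 3.65, CRY2 at 3.17, CRY1 at 2.7 and TEF at 1.58 RPKM. There NR1D1 and PER1, and PER1 and DBP, overlapped. The value of DBP is the least certain per length, since its row covers 6544 bases in only 2 blocks, close to the whole gene, and can hold intronic reads.

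PER2, a period gene whose protein binds the cryptochromes in the repressor complex, showed the largest change of the tested clock genes. Its row spans chr2:238244038-238290102 on the minus strand. It had counts of 1646 and 1469 in the control libraries against 2822 and 2861 with VIRMA, or 19.8 and 17.6 against 33 and 34.2 CPM. Both VIRMA libraries lay far above both controls. The means were 18.7 ± 1.58 and 33.6 ± 0.897 CPM (SD, n = 2 each), which gave a log2 fold change of 0.85 with an SE of 0.0653 (edgeR adjusted p = 6.55e-14). Among all tested genes 12.3% changed by more in either direction. An opposite-strand gene, AC096574.4, shares 188 exonic bases with PER2, or 2.73% of the PER2 row, and itself had 12 and 5 counts against 33 and 35. Whether counting used strand is not stated, and the part of AC096574.4 reads in the PER2 value was not tested.

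PER1, a paralog quickly induced by glucocorticoids and cyclic AMP, moved little. Its row spans chr17:8140472-8150317 on the minus strand, 7002 exonic bases in 18 blocks. It had counts of 2361 and 2411 in the control libraries against 2696 and 2528 with VIRMA, or 28.4 and 28.8 against 31.5 and 30.2 CPM. The groups did not overlap, but the log2 fold change was 0.11 (SE 0.0583) and the edgeR adjusted p 0.0903. With upper-quartile factors it was 0.18 (adjusted p = 0.00639) and with library totals 0.19 (adjusted p = 0.00413), so whether PER1 is called depends on the scaling. Of all tested genes 82.5% changed by more.

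PER3, the period gene least needed for rhythms in mice, was barely detected. Its row spans chr1:7784320-7845177 on the plus strand. It had counts of 8 and 29 in the control libraries against 28 and 62 with VIRMA, and its level was 0.0119 to 0.0916 RPKM. The second control library was above the first VIRMA library, so the groups overlapped. In a fit of all 33976 genes that could be fitted with no expression filter its log2 fold change was 1.23 with an SE of 0.504 (edgeR adjusted p = 0.0501). The value ranged from 0.53 to 2.43 when 1 library was left out, the latter without control 2 (adjusted p = 0.00212), and the library with 8 counts shows how few reads this rests on. PER3 shares 868 bases with UTS2 and 482 bases with RP3-467L1.4, which had at most 1 and 6 counts in any library.

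The cryptochromes, light-insensitive flavoproteins in mammals and the main transcriptional repressors of CLOCK and BMAL1, both rose. CRY2 (chr11:45847118-45883248, plus strand) had counts of 1230 and 1167 in the control libraries against 1695 and 1630 with VIRMA, or 14.8 and 13.9 against 19.8 and 19.5 CPM. Its means were 14.4 ± 0.597 and 19.6 ± 0.209 CPM, with a log2 fold change of 0.45 with an SE of 0.0744 (edgeR adjusted p = 1.79e-06). CRY1 (chr12:106991364-107093829, minus strand) had counts of 823 and 1031 in the control libraries against 1137 and 1178 with VIRMA, or 9.9 and 12.3 against 13.3 and 14.1 CPM. The groups did not overlap in either gene, but the first CRY1 control lay well below the second. The log2 fold change of CRY1 was 0.30 (SE 0.0945, edgeR adjusted p = 0.00518), and without control 1 it was 0.15 (adjusted p = 0.211), so this call rests on that library. RP11-797M17.1, which shares 94 bases with CRY1, had 0 counts in every library.

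The REV-ERB receptors moved in opposite directions. NR1D2 (REV-ERB beta, chr3:23945260-23980618, plus strand) had counts of 969 and 1059 in the control libraries against 1825 and 1769 with VIRMA, or 11.7 and 12.7 against 21.3 and 21.2 CPM. Its log2 fold change was 0.81 with an SE of 0.0762 (edgeR adjusted p = 1.3e-11), and 13.7% of tested genes changed by more. NR1D1 (REV-ERB alpha, chr17:40092787-40100725, minus strand) had counts of 1366 and 1371 in the control libraries against 1054 and 1104 with VIRMA, or 16.4 and 16.4 against 12.3 and 13.2 CPM. Both VIRMA libraries lay below both controls. The log2 fold change of NR1D1 was -0.36 (SE 0.0804, edgeR adjusted p = 0.00015), a size that 46.7% of tested genes exceeded.

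NR1D1 shares 263 exonic bases, 9.49% of its 2772, with THRA, the thyroid hormone receptor alpha gene on the opposite strand. THRA had counts of 5718 and 5722 in the control libraries against 3322 and 3121 with VIRMA, which gave a log2 fold change of -0.85 with an SE of 0.0448 (edgeR adjusted p = 1.57e-18). Without a stated strand setting, reads of the shared stretch cannot be assigned to either gene, and the part of THRA reads in the NR1D1 value was not tested. THRA fell by more than NR1D1: the NR1D1/THRA ratio of RPKM was 0.6 and 0.602 in the controls and 0.797 and 0.888 with VIRMA.

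The PAR bZIP factors did not pass the test, apart from DBP under 2 other scalings. DBP (chr19:48630030-48637438, minus strand), among the most rhythmic transcripts of many tissues, had counts of 2207 and 2343 in the control libraries against 2485 and 2391 with VIRMA, or 26.5 and 28 against 29 and 28.6 CPM. The groups did not overlap, the log2 fold change was 0.08 (SE 0.0601) and the edgeR adjusted p 0.238, but with upper-quartile factors it was 0.15 (adjusted p = 0.0261) and with library totals 0.16 (adjusted p = 0.0169). DBP shares 661 bases, 10.1% of its row, with the opposite-strand gene SPHK2, whose log2 fold change was 0.05 (adjusted p = 0.514). TEF (chr22:41367333-41399326, plus strand), a close relative of DBP, had counts of 653 and 570 in the control libraries against 643 and 620 with VIRMA. Both VIRMA libraries lay between the controls, and the log2 fold change was 0.03 with an SE of 0.115 (edgeR adjusted p = 0.851), with the sign turning under 3 other expression filters. CIART (chr1:150282543-150287093, plus strand) had counts of 84 and 86 in the control libraries against 84 and 104 with VIRMA, 0.364 to 0.461 RPKM over the libraries. The groups overlapped, and in the fit with no filter the log2 fold change of CIART was 0.09 (SE 0.294, adjusted p = 0.867).

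Ratios between paralogs within a library do not depend on scaling between libraries. The PER2/PER1 ratio of RPKM was 0.71 and 0.62 in the controls and 1.07 and 1.15 with VIRMA, so PER1 was the higher gene in both controls and PER2 in both VIRMA libraries. The NR1D2/NR1D1 ratio was 0.338 and 0.368 in the controls and 0.825 and 0.763 with VIRMA, a difference of 1.17 on the log2 scale. The NR1D1 value, here and in the REV-ERB sums below, can hold THRA reads, and that part was not tested. Neither ratio overlapped between the groups. The two-sided exact permutation p was 0.333 for each, and 2 against 2 libraries cannot give less than 0.33. The CRY2/CRY1 ratio was 1.22 and 0.924 in the controls and 1.22 and 1.13 with VIRMA, and the DBP/TEF ratio 2.44 and 2.96 against 2.78 and 2.78. Both overlapped (exact permutation p = 1 each).

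Summed within a family, the totals differed less than their parts for the REV-ERB genes. NR1D1 and NR1D2 together had 7.93 and 8.08 RPKM in the controls and 8.1 and 8.4 RPKM with VIRMA. The 3 PER genes together had 6.94 and 6.71 RPKM against 9.33 and 9.39, and the CRY genes 4.34 and 4.68 against 5.82 and 5.93. DBP and TEF together had 5.72 RPKM in both controls and 6.03 and 5.94 with VIRMA. The PER and CRY sums of the groups lie well apart, while the REV-ERB sums lie close together.

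**Figure D2:**
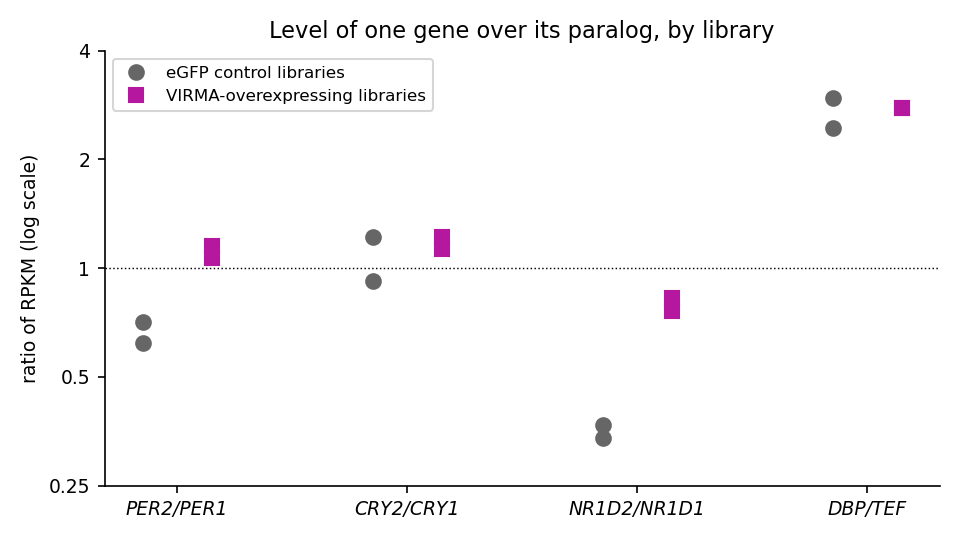
Ratio of RPKM between paralogs in each library (log scale, dotted line at equal level), for eGFP control and VIRMA-overexpressing libraries. PER2/PER1 crosses from below 1 in both controls to above 1 in both VIRMA libraries and NR1D2/NR1D1 rises but stays below 1, while CRY2/CRY1 and DBP/TEF overlap.

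**Figure D3:**
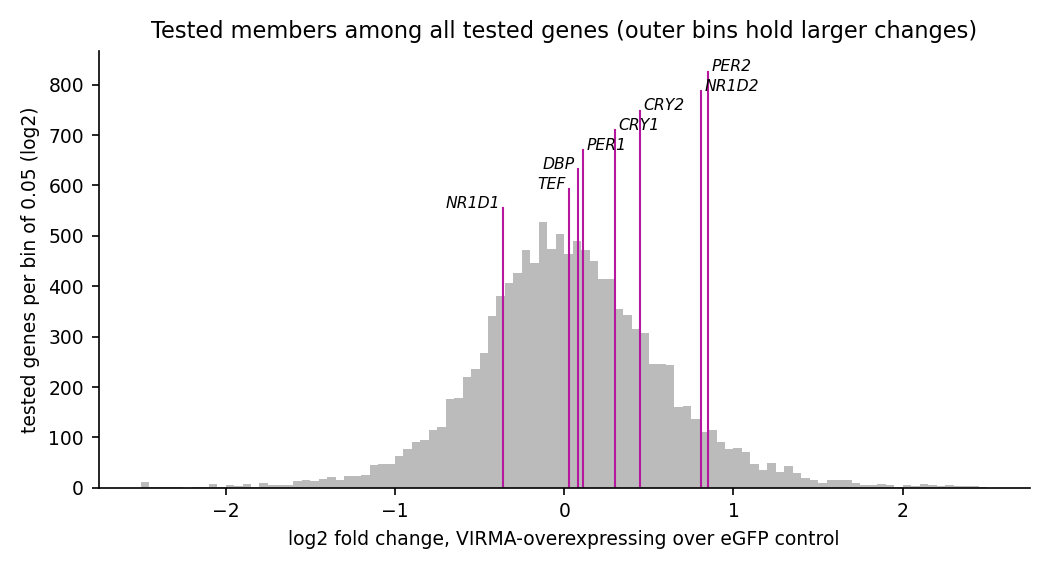
Histogram of log2 fold changes over all 12205 tested genes (bins of 0.05, values beyond 2.5 in the outer bins), with a line at each tested clock gene. PER2 at 0.85 and NR1D2 at 0.81 lie in the upper tail, where 7.21% and 7.98% of tested genes were higher, and the other 6 lie within the main body.

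Most activators of these genes were below the expression filter. Of 6 activators of the loops described here 2 were tested and both were called higher, 1 of them past 2-fold. Of all tested genes 35.1% were called higher. The median log2 fold change of the 2 activators was 0.64. With each of the 3 other expression filters 1 activator was called lower. NPAS2, a paralog of CLOCK, had 722 and 751 counts in the controls against 1722 and 1517 with VIRMA (log2 fold change 1.12, SE 0.085, edgeR adjusted p = 4.72e-14). Its level was 0.695 and 0.718 RPKM in the controls and 1.61 and 1.45 RPKM with VIRMA. NPAS2 thus passed the expression filter only through the group where it was higher. With no filter its log2 fold change was 1.08. CLOCK itself had 2273 and 2375 counts against 2709 and 2559, with a log2 fold change of 0.16 (adjusted p = 0.0153). That call was lost under 3 other expression filters (adjusted p = 0.0548 to 0.115), without control 1 (0.114) and without VIRMA-overexpressing 1 (0.0929).

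ARNTL, which encodes BMAL1 and is a well-known target of REV-ERB repression, was below the filter, with 296 and 367 counts in the controls and 584 and 540 with VIRMA. With no filter its log2 fold change was 0.71 with an SE of 0.137 (edgeR adjusted p = 1.65e-06), and with either VIRMA library left out the adjusted p was 0.131 and 0.104. Another 3 genes below the filter were named after their values were seen. ARNTL2 had 87 and 100 counts against 26 and 47 (log2 fold change -1.41, adjusted p = 0.00033 with no filter) and RORA 85 and 82 against 138 and 160 (0.78, adjusted p = 0.012). BHLHE41, a repressor at E-boxes, had 50 and 47 counts against 90 and 104 (0.95, adjusted p = 0.0154). In all 3 the groups did not overlap, which was also so in 84.3% of the tested genes. Their calls were lost with either VIRMA library left out (adjusted p = 0.144 and 0.0521 for ARNTL2, 0.101 and 0.196 for RORA, and 0.113 and 0.198 for BHLHE41) and that of BHLHE41 also without control 2 (0.0572). The calls of RORA and BHLHE41 were also lost with DESeq2 (0.0712 and 0.0848) and limma-voom (0.0572 and 0.0616).

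Of 4 other factors of the E-box and D-box 2 were tested, 1 of them higher and 1 lower, with a median of 0.07. NFIL3, the bZIP repressor that competes with DBP and TEF at D-boxes, rose from 716 and 671 counts to 1116 and 1148 (log2 fold change 0.69, edgeR adjusted p = 5.44e-08). Its level per length was 4.13 and 3.85 RPKM in the controls, around that of DBP, and 6.25 and 6.59 RPKM with VIRMA. BHLHE40, a repressor at E-boxes, fell from 5211 and 5509 counts to 3869 and 3560 (-0.55, adjusted p = 4.98e-13). HLF, the remaining PAR bZIP gene, was below the filter, with 393 and 416 counts against 498 and 522 (0.28, adjusted p = 0.112 with no filter). It passed with library totals as scaling (0.40, adjusted p = 0.0123).

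**Figure D4:**
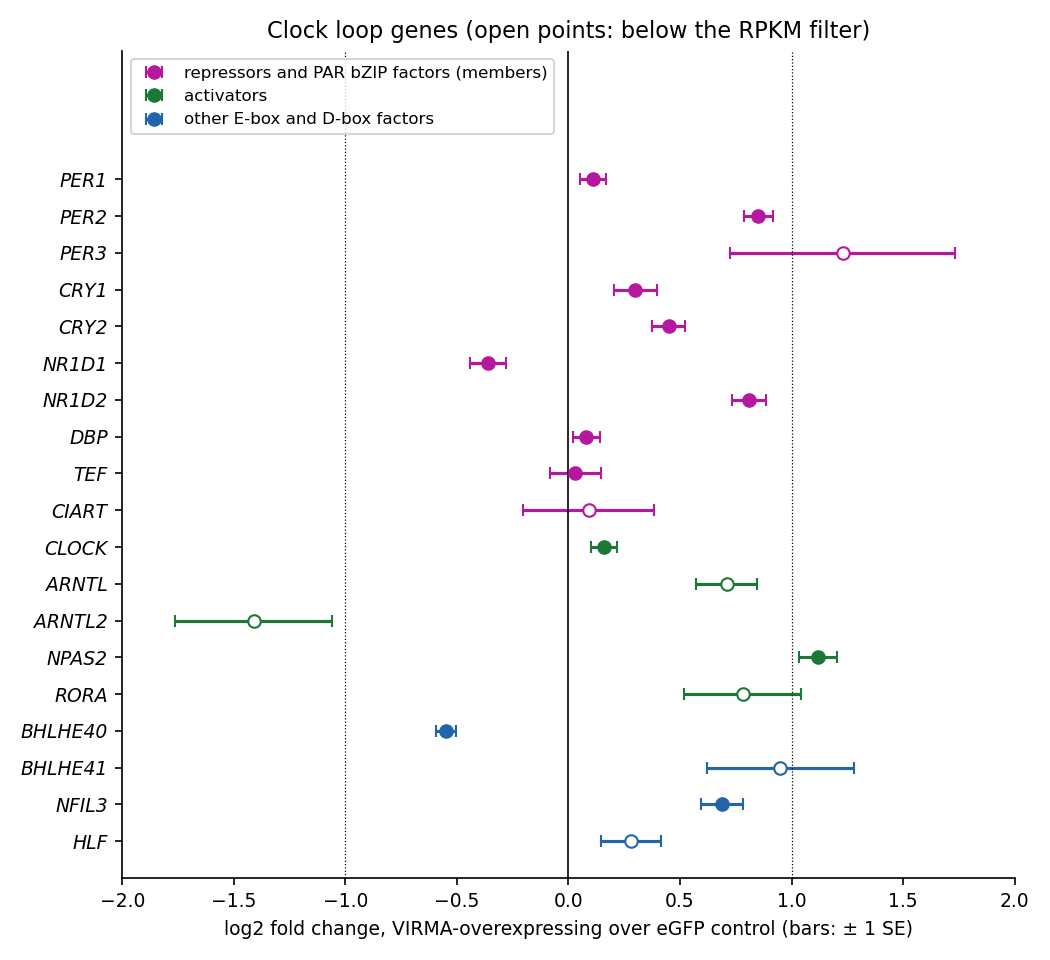
Log2 fold change of each clock loop gene, VIRMA-overexpressing over eGFP control, with bars of 1 SE either side. Filled points were tested and open points come from the fit with no filter, and dotted lines mark 2-fold. NPAS2 at 1.12 lies beyond every tested clock repressor and PAR bZIP gene, of which PER2 at 0.85 is the highest. It passed the filter through its VIRMA libraries alone. PER1 and DBP pass the test under library-total or upper-quartile scaling.

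Genes that act on the PER, CRY and REV-ERB proteins moved in both directions. Of 21 kinases, ubiquitin ligases and partners of PER and CRY, 20 were tested, 8 were called higher and 6 lower, with a median log2 fold change of 0.09. CSNK1A1 (0.48, adjusted p = 1.86e-13) and GSK3B (0.55, adjusted p = 8.38e-13), kinases of clock proteins, were higher. The phosphatase subunit PPP1CA was lower (-0.68, adjusted p = 4.11e-20). The 2 called 2-fold lower were TIMELESS (-1.0, adjusted p = 6.66e-20) and TIPIN (-1.14, adjusted p = 7.52e-09), partners of each other that are best known in mammals for DNA replication. TIMELESS passed the 2-fold line narrowly (-1.003). It fell short of that line with upper-quartile factors (-0.932) and library totals (-0.919). The same held without control 2 (-0.938) and without VIRMA-overexpressing 1 (-0.992). TIPIN was named after its value was seen. Of 5 genes of the NCOR and HDAC3 corepressor recruited by REV-ERB, all were tested, 3 were higher and 1 lower (median 0.41). NCOR1 (0.59, adjusted p = 6.12e-14), TBL1X (0.69, adjusted p = 1.12e-10) and TBL1XR1 (0.41, adjusted p = 2.94e-10) rose, and the deacetylase HDAC3 (-0.26, adjusted p = 5.37e-06) fell.

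Clock output genes were called in both directions, at shares to be read, as for the other lists, against the 35.1% of all tested genes called higher and 35.9% called lower. Of 17 listed, 13 were tested, 5 were higher and 6 lower, with a median log2 fold change of -0.16. POR, the electron donor of cytochrome P450 enzymes (-0.55, adjusted p = 5.34e-18), and MYC (-0.40, adjusted p = 2.95e-13) fell. TSC22D3 (0.48, adjusted p = 2.04e-13) and MTHFD1L, a mitochondrial folate enzyme (0.63, adjusted p = 6.17e-12), rose.

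Genes of the inputs that reset PER transcription were also followed. Of 14 genes of the cyclic AMP and CREB pathway 9 were tested, 1 was higher and 3 lower, with a median of -0.02. CREB1, which encodes the factor itself, rose (0.88, adjusted p = 2.4e-13), and its immediate early targets NR4A1 (-1.59, adjusted p = 4.4e-30) and FOS (-0.54, adjusted p = 7.84e-18) fell. SIK1 was called lower (-0.40, adjusted p = 0.00909), a call lost without control 1 (0.075) or VIRMA-overexpressing 2 (0.129). Of 12 glucocorticoid-induced genes 9 were tested, 5 were higher and 2 lower (median 0.28). ERRFI1 (1.32, adjusted p = 1.09e-25) and PDK4 (2.28, adjusted p = 1.5e-16) rose, and DUSP1 (-0.92, adjusted p = 3.46e-22) and FKBP5 (-1.51, adjusted p = 4.2e-15) fell. PDK4 and FKBP5 each passed the expression filter only through the group where they were higher. PDK4 was at 0.407 and 0.436 RPKM in the controls and 2.07 and 2.03 with VIRMA. FKBP5 was at 1.46 and 1.31 RPKM in the controls and 0.524 and 0.445 with VIRMA. Within each of these lists members moved in both directions.

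**Figure D5:**
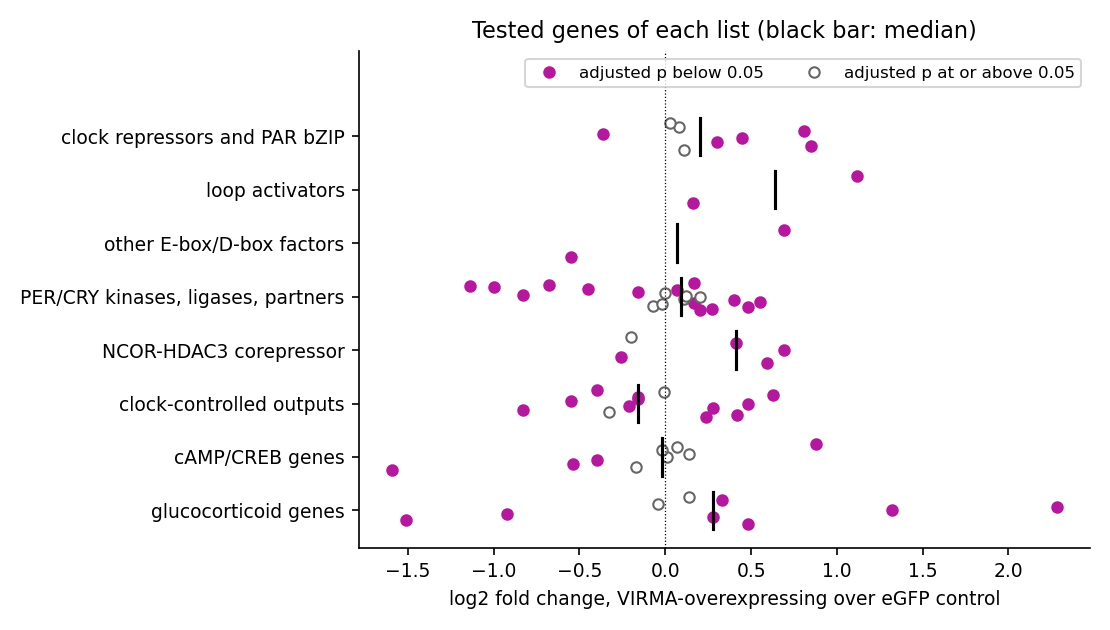
Log2 fold change of every tested gene in 8 lists, VIRMA-overexpressing over eGFP control, filled where the edgeR adjusted p was below 0.05 and with a bar at each list's median. The clock repressor and PAR bZIP genes span -0.36 to 0.85 around a median of 0.21, narrower than the cyclic AMP genes and the glucocorticoid genes, and PER1 and DBP, open here, are called under library-total or upper-quartile scaling.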

How the data were processed

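Poly-A RNA of 4 SKBR3 libraries (2 eGFP control, 2 VIRMA-overexpressing) was sequenced with a stranded kit. The authors trimmed reads with Trimmomatic 0.39, aligned them with STAR 2.5.2a to hg38 (Ensembl annotation) and deposited raw featureCounts counts per gene, whose strand and multimapping settings are not given in the sources used here. Control columns name the control, and VIRMA columns were assigned as the remaining group and checked by the VIRMA counts.

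Here, genes above 1 RPKM in at least 2 libraries were tested with the edgeR 4.0.16 quasi-likelihood test (R 4.3.3, TMM factors, group only, Benjamini-Hochberg over all 12205 tested genes). The biological coefficient of variation was 3.93%. CPM and RPKM are TMM-scaled. Genes below the filter take values from a fit of all genes. Replicates differed beyond counting noise (chi-square per degree of freedom 6.01 in controls, 4.98 with VIRMA). P-values measure the spread between these libraries, which may be technical. Alternatives were DESeq2 1.42.0, limma 3.58.1 (voom), other scalings and filters, a replicate block and leaving out each library. The clock genes and lists were chosen with earlier results of these data known. Named were all 10 genes, up to 4 of each list with the smallest adjusted p, CLOCK, ARNTL, HLF and genes sharing exons with a clock gene. Gene places are as deposited, and promoters are RefSeq. Tests were checked on simulated data. Some genes of the lists are not reported here and were left out of the list counts.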

Additional observations from a re-analysis of the deposited data

How the results depend on the processing

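PER2, CRY2, NR1D1 and NR1D2 kept their direction and their call under every alternative fit run. PER1 passed with upper-quartile factors (log2 fold change 0.18) and library totals (0.19), and DBP likewise (0.15 and 0.16). PER3, fitted with no filter, passed with library totals (1.35) and with the replicate block (1.33), which changed no other call among the clock genes. Replicate numbers did not pair the libraries (correlation of same-numbered deviations 0.0755). TEF turned sign with filterByExpr (-0.018), no filter (-0.008) and a minimum of 10 counts (-0.004). Leaving out each library in turn gave 0.53 to 2.43 for PER3, 0.15 to 0.47 for CRY1, -0.074 to 0.13 for TEF and -0.087 to 0.26 for CIART, with a lone library assumed to vary like the other group. At the 2-fold threshold 0 clock genes were higher and 0 lower. Upper-quartile factors and library totals moved the median of all genes by 0.072 and 0.083. In the lists, activators called higher went from 2 to 1 without control 1 or VIRMA-overexpressing 1, those called lower went from 0 to 1 and other E-box and D-box factors called higher from 1 to 2 with the 3 other filters. Cyclic AMP genes called higher went from 1 to 3 with upper-quartile factors or library totals and to 2 with the replicate block or without control 1, and those called lower from 3 to 5 with filterByExpr. Wider filters test more genes. The cause of the other changes was not tested.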
